A study of Mus musculus with 24 samples.

Results

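Alg10b, Dad1, Uggt1, Pomt1, Pomt2 and Pomgnt1 encode enzymes and an enzyme subunit of the endoplasmic reticulum (ER) and early secretory pathway that build N-glycans, check glycoprotein folding or start the O-mannose glycans of dystroglycan. The 6 genes were chosen from 908 named genes by their names and roles, with their log2 signals by genotype and month already known from earlier results of the same data. The comparison of genotypes, at each age and over the 4 ages, therefore describes these genes and is given without a test. Each gene was read by 1 probe set, named through the transcript identifier in the probe set's name, and the 6 probe sets were 6 of 1246 on the array.

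The study collected retinas from mice of the mutant line (genotype RP Mutant, P347S+) and from normal mice (genotype Normal, P347S-) at ages of 1, 2, 3 and 4 months, with 3 arrays for each genotype and age and 24 arrays in all. The design text calls the line a transgenic model in which rod photoreceptors are lost over these months, with little loss visible at the first age. The labels name no strain and no promoter of the transgene, give the sex as unknown, and leave unstated which arrays, if any, share an animal, so each p measures only the spread between samples, which may be technical. Total RNA of whole retina was hybridised to an Affymetrix array for glycan-related genes, and values are log2 signals made with RMA, a method that combines the probes of a probe set into 1 value per array. Loss of cells of a type and less RNA per cell cannot be told apart in whole retina, and 3 arrays a group set the precision.

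N-glycans are assembled on the lipid dolichol, sugar by sugar, and moved as a block onto nascent proteins by the oligosaccharyltransferase. Glucose residues on the transferred glycan are then trimmed and, on misfolded proteins, added back, which keeps them bound to the lectin chaperones until they fold. O-mannosylation of dystroglycan starts in the same compartment, and the finished glycan binds extracellular proteins such as agrin and, at the photoreceptor synapse, pikachurin.

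Promoters are shown for Alg10b and Pomt2, the pair of members whose signals correlated most closely over the 24 arrays (r = 0.81), so that letters they share can be seen. The 250 bases before a RefSeq transcription start are printed on the gene's own strand (GRCm38.p6), for Alg10b at chr15:90224061-90224310 on the plus strand and for Pomt2 at chr12:87147903-87148152 on the minus strand. Capitals mark CCAAT and CCACG, read on either strand, which are the outer parts of the ER stress response element.
Alg10b: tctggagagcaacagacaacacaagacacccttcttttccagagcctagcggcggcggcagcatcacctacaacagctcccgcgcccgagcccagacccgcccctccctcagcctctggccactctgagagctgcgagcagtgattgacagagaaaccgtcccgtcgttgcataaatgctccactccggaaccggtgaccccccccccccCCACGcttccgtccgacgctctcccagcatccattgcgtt
Pomt2: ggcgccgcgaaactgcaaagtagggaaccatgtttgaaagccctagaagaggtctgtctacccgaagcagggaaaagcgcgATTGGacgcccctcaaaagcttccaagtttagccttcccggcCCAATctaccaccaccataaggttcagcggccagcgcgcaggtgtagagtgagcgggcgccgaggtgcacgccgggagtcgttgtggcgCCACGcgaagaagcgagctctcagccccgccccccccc
Alg10b had 1 match, CCACG, and Pomt2 had 3, CCAAT on each strand and CCACG. RefSeq windows were found for all 6 genes, 7 windows in all because Pomgnt1 has a pair of starts. CCAAT stood in those of Dad1 and Pomt2, against 33.85% of 32851 windows of the same length, and CCACG in those of Alg10b, Pomgnt1, Pomt1 and Pomt2, against 28.34%. The CCACG matches of Pomgnt1, Pomt1 and Pomt2 lay inside the annotated span of the gene, which begins before the start used for that window. The full ER stress response element, CCAAT and CCACG with 9 bases between them on either strand, was in 0 of the 6 genes' windows and in 0.11% of all windows. TAATCC, the core letters of sites for the photoreceptor factor CRX, was in 0 of the 6 genes' windows and in 6.25% of all. These matches describe letters in a window only.

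Arrays that stood apart in genes of lens or connective tissue, and cell markers that moved with genotype, are given before the gene values. Grifin, a gene of the lens, was above a log2 signal of 10 on 3 arrays, mutant 2 months replicate 2 (11.29), normal 2 months replicate 2 (11.33) and normal 4 months replicate 1 (10.16). Dcn, of connective tissue, read 6.51 on mutant 4 months replicate 3, against 4.27 and 4.42 on the other mutant arrays of that age. In normal retinas of 2 months Dcn read 6.45 on replicate 2 and 6.90 on replicate 3, against 4.60 on replicate 1. Of the 10 listed markers of microglia and macrophages 5 were measured and 4 were higher in mutant retinas (Csf1r, Cx3cr1, Adgre1 and Siglech), with a log2 summed level between 8.76 and 9.70 in mutant arrays, against 8.14 to 8.50 in normal arrays. Of 9 markers of reactive Müller glia and astrocytes 5 were measured and 4 were higher (Fgf2, Vcam1, Icam1 and Cd44), with summed levels between 9.62 and 10.77 in mutant arrays, against 9.05 to 10.52 in normal arrays. Of the other lists, 1 of 3 measured connective tissue genes (Pdgfra) and 2 of 3 endothelial genes (Cd34 and Mcam) were higher, and Grifin, the 1 lens gene measured, did not pass (-0.28, adjusted p = 0.749). Of 11 rod markers only Gnb1, which other neurons express too, was measured, between 12.62 and 13.04 in mutant arrays, against 12.64 to 13.26 in normal arrays (log2 difference -0.21 ± 0.06, SE, limma adjusted p = 0.0121, and -0.08, adjusted p = 0.226, with the arrays quantile normalized again). The part of these cell markers in the gene values below was not tested.

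N-glycan precursor. Alg10b, which adds the last glucose to the dolichol-linked precursor, read close to normal at 1 month and lower in mutant retinas at each later age. At 1 month it read 6.67, 6.91 and 6.83 on the mutant arrays, against 6.82, 6.73 and 6.74 on the normal arrays. At 2 months it read 6.65, 6.40 and 6.42 in mutant and 6.67, 6.91 and 6.73 in normal retinas. At 3 months the mutant arrays read 6.29, 6.36 and 6.46 and the normal arrays 6.79, 6.57 and 6.87. The genotypes overlapped at 1 month, and from 2 months on every mutant array lay below every normal array of its age, at 2 months by a margin of a few hundredths. At 4 months Alg10b read 6.43, 6.47 and 6.28 in mutant and 6.84, 6.72 and 6.70 in normal retinas. From 1 to 4 months the log2 differences, mutant minus normal, were 0.04, -0.28, -0.38 and -0.36, each ± 0.09 (SE, 3 arrays a group), the last 0.781 of the normal level. The suffix s of its probe set means that other transcripts may match the probes, which the other 5 probe sets do not carry.

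Ordered by group mean, Alg10b was lowest in mutant retinas of 3 months (6.37 ± 0.09, SD, n = 3), 4 months (6.40 ± 0.10) and 2 months (6.49 ± 0.14). The normal groups followed, between 6.74 ± 0.16 at 3 months and 6.77 ± 0.13 at 2 months, and mutant retinas of 1 month were highest (6.80 ± 0.13). Neighbours within the lower set and within the upper set differed by no more than their SD, while the step between mutant retinas of 2 months and normal retinas of 3 months exceeded the SD of both.

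**Figure D1:**
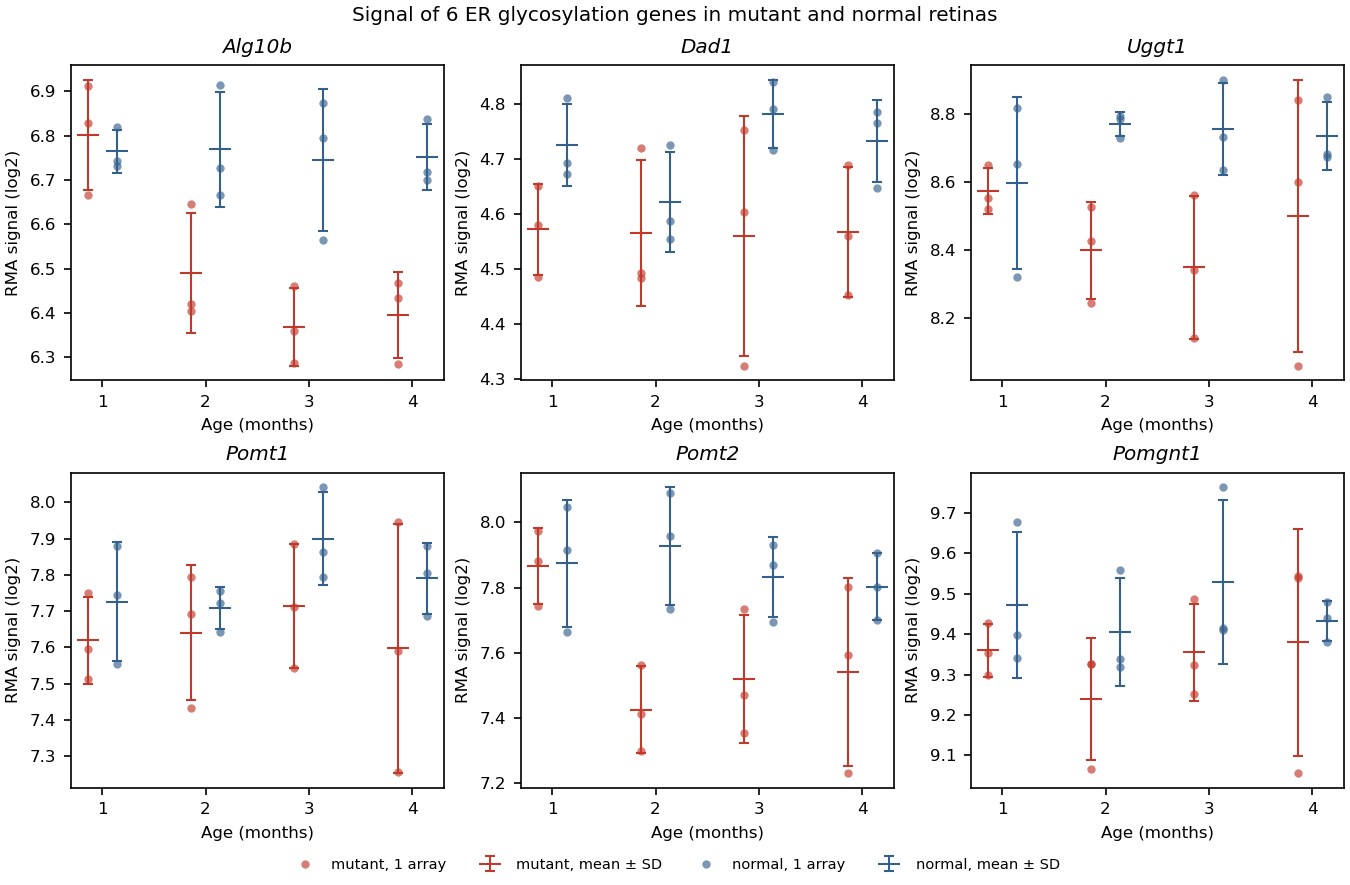
RMA signal (log2) of the 6 genes against age in months, with 1 point for each array and bars for the mean ± SD of 3 arrays; mutant retinas stand left of normal retinas at each age. Alg10b in mutant retinas lies at 6.67 to 6.91 at 1 month and at 6.28 to 6.47 at 4 months, while normal retinas stay between 6.57 and 6.91.

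Oligosaccharyltransferase. Dad1, a small subunit that the oligosaccharyltransferase complex needs to stay assembled, read slightly lower in mutant retinas. The 12 mutant arrays had a lowest signal of 4.32, a median of 4.57 and a highest of 4.75, against 4.55, 4.72 and 4.84 in the 12 normal arrays. The genotypes overlapped over all ages together, but 11 of 12 mutant arrays lay below the normal median. At 1 month Dad1 read 4.49, 4.65 and 4.58 in mutant and 4.81, 4.67 and 4.69 in normal retinas, without overlap, and at the later ages the genotypes overlapped. The differences from 1 to 4 months were -0.15, -0.06, -0.22 and -0.17, each ± 0.10. Its mean signal stood at the 41.0 percentile of all probe sets, and how far that lies above background was not measured, which makes its fold uncertain.

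Folding sensor. Uggt1, which adds glucose back to misfolded glycoproteins so that they are held for another round of folding, was lower in mutant retinas at 2 and 3 months. At 2 months it read 8.43, 8.24 and 8.53 in mutant and 8.73, 8.79 and 8.79 in normal retinas. At 3 months it read 8.34, 8.14 and 8.56 in mutant and 8.90, 8.63 and 8.73 in normal retinas. At both ages the genotypes did not overlap. At 1 month the mutant arrays, 8.55, 8.65 and 8.52, lay within the normal ones, 8.65, 8.32 and 8.82. At 4 months Uggt1 read 8.60, 8.84 and 8.06 in mutant and 8.67, 8.85 and 8.68 in normal retinas, with an SD of 0.40 in the mutant group, where replicate 3 was lowest. The differences were -0.02 ± 0.15, -0.37 ± 0.15, -0.41 ± 0.15 and -0.23 ± 0.15 from 1 to 4 months.

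O-mannose initiation. Pomt1 and Pomt2 form the enzyme that places mannose on dystroglycan, and the Pomt2 signal differed more at 2 months than that of any other member. Pomt2 then read 7.56, 7.30 and 7.41 in mutant and 7.74, 7.96 and 8.09 in normal retinas, without overlap. At 1 month the groups were close, with 7.74, 7.88 and 7.97 in mutant and 7.91, 7.66 and 8.05 in normal retinas. At 3 months Pomt2 read 7.47, 7.35 and 7.74 in mutant and 7.93, 7.69 and 7.87 in normal retinas, and at 4 months 7.80, 7.59 and 7.23 in mutant and 7.80, 7.91 and 7.70 in normal retinas, with overlap at both ages. From 1 to 4 months the differences were -0.01, -0.50, -0.31 and -0.26, each ± 0.14, and the signal at 2 months was 0.706 of the normal level. Group means lay at 7.43 ± 0.13 (SD, n = 3), 7.52 ± 0.20 and 7.54 ± 0.29 in mutant retinas of 2, 3 and 4 months. The normal groups lay between 7.80 ± 0.10 and 7.93 ± 0.18, with mutant retinas of 1 month among them at 7.87 ± 0.12. Neighbouring groups in either set differed by less than their SD, and the step from mutant retinas of 4 months to the upper set was also within the SD of those mutant retinas.

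Pomt1 overlapped between the genotypes at every age. The mutant arrays read 7.26 at the lowest, 7.64 at the median and 7.94 at the highest, against 7.55, 7.77 and 8.04 in normal retinas. At 4 months alone the mutant arrays spanned 7.94, 7.59 and 7.26, which is also the range over all 12 mutant arrays, against 7.80, 7.88 and 7.69 in normal retinas. The differences from 1 to 4 months were -0.11, -0.07, -0.19 and -0.19, each ± 0.14 and so below 2 standard errors.

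O-mannose extension. Pomgnt1, which adds N-acetylglucosamine to the mannose, likewise overlapped at every age. It read 9.06 at the lowest, 9.33 at the median and 9.54 at the highest in the mutant arrays, against 9.32, 9.41 and 9.76 in the normal arrays. The difference was -0.11 ± 0.13, -0.17 ± 0.13, -0.17 ± 0.13 and -0.05 ± 0.13 from 1 to 4 months. In 4 of 12 mutant arrays the signal lay below the lowest normal array.

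Set side by side, 5 of the 6 differences were negative at 1 month and 6 of 6 at 2, 3 and 4 months; at 1 month this count was 3 with each array centred on its median and 6 with quantile normalization, while at the later ages it was 6 under both. The median of the 6 differences was -0.06, -0.22, -0.27 and -0.21 from 1 to 4 months, beside -0.02, 0.01, -0.06 and -0.01 over all probe sets. Genes whose 3 mutant arrays all lay below the 3 normal arrays were 1 of 6 at 1 month (Dad1), 3 at 2 months (Alg10b, Uggt1, Pomt2), 2 at 3 months (Alg10b, Uggt1) and 1 at 4 months (Alg10b). Over all probe sets the same held for 11.7%, 8.35%, 19.4% and 12.9%. These counts follow from the choice of the genes and carry no test.

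**Figure D2:**
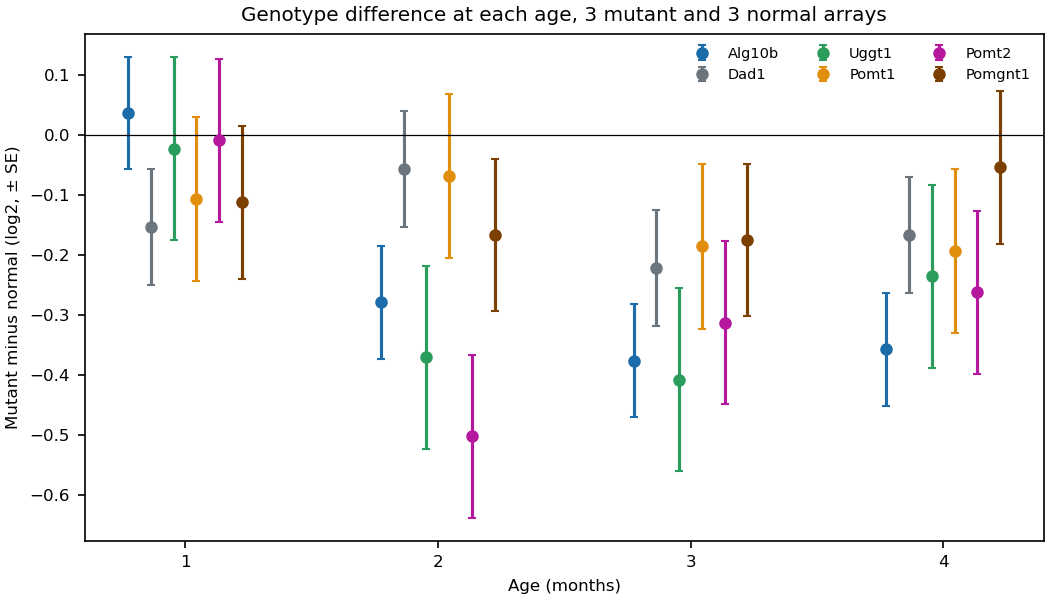
Mutant minus normal log2 difference (points) with its SE (bars) for the 6 genes at 1, 2, 3 and 4 months, from 3 mutant and 3 normal arrays at each age. Pomt2 has the lowest point, -0.50 at 2 months, and Alg10b changes from 0.04 at 1 month to -0.36 at 4 months.

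Over the 4 ages the mean difference was -0.24 ± 0.05 for Alg10b, -0.15 ± 0.05 for Dad1, -0.26 ± 0.08 for Uggt1, -0.14 ± 0.07 for Pomt1, -0.27 ± 0.07 for Pomt2 and -0.13 ± 0.06 for Pomgnt1 (SE, 24 arrays). The percent changes belonging to these ran from -8.4% for Pomgnt1 to -17.1% for Pomt2. With limma, 22.6% of all probe sets passed an adjusted p of 0.05 in this comparison, 13.8% higher and 8.83% lower in mutant retinas, and 62.1% had a negative difference. Quantile normalization turned the 172 higher and 110 lower calls into 161 and 157, and centring into 201 and 85.

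The choice of the genes names month as well as genotype, so their course with age is also a description, and nothing is read from counts of members that passed. In mutant retinas the Alg10b signal at 4 months minus that at 1 month was -0.41 ± 0.09 on the log2 scale (SE, 95% interval -0.60 to -0.21). Its 3 arrays of 4 months, 6.43, 6.47 and 6.28, all lay below its 3 arrays of 1 month, 6.67, 6.91 and 6.83. In the limma fit it was the 1 of 6 members under an adjusted p of 0.05, beside 2.65% of all probe sets, of which 1.12% were lower and 1.52% higher at 4 months. At an unadjusted p under 0.05 the counts were 2 of 6 members and 188 of 1246 probe sets. The member count was 0 without mutant 1 month replicate 2 or 3, without mutant 4 months replicate 1 or 3, and with the 6 arrays fitted alone.

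Pomt2 in mutant retinas had a 4-month minus 1-month difference of -0.32 ± 0.14 (95% interval -0.61 to -0.04). With quantile normalization (-0.36) it was also under the threshold, beside 47 of 1246 probe sets, which is again a description. The other 4 members had differences of -0.07 ± 0.15 (Uggt1), -0.02 ± 0.14 (Pomt1), 0.02 ± 0.13 (Pomgnt1) and -0.01 ± 0.10 (Dad1) in mutant retinas. The 95% interval was -0.21 to 0.20 for Dad1 and -0.39 to 0.24 for Uggt1.

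In normal retinas 0 of the 6 genes passed between 1 and 4 months in limma, 0 at an unadjusted p under 0.05, and 0% of all probe sets passed, with 92 of 1246 at an unadjusted p under 0.05. The differences lay between -0.07 ± 0.14 for Pomt2 and 0.14 ± 0.15 for Uggt1, and Alg10b had -0.01 ± 0.09 (95% interval -0.21 to 0.18).

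The values and counts of members that follow again describe genes chosen with their signals by genotype and month known. The genotype difference of Alg10b moved by -0.39 ± 0.13 between the first and last ages (95% interval -0.67 to -0.12). In limma 0 of the 6 genes passed for this change and 0 for the F test over the ages, beside 0.241% and 0.321% of all probe sets. At an unadjusted p under 0.05, 1 of 6 members (Alg10b in both) stood beside 142 and 180 of 1246 probe sets. With quantile normalization 1 of 6 passed for the change, Alg10b (-0.49), beside 15 of 1246 probe sets. For Pomt2 the change of the difference was -0.25 ± 0.19, and for the other 4 genes it lay between -0.21 ± 0.22 for Uggt1 and 0.06 ± 0.18 for Pomgnt1.

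The 24 other genes came from 4 lists (the dolichol-linked precursor, oligosaccharyltransferase subunits, ER trimming and quality control, and O-mannosylation). Of these, 0 passed in the genotype comparison over the 4 ages with limma, beside 22.6% of all probe sets. At an unadjusted p under 0.05, 4 of the 24 were lower and 1 higher, beside 233 lower and 211 higher of 1246 probe sets. With quantile normalization 1 passed as higher (Alg2) and 4 as lower (Ddost, Alg12, B3galnt2 and Alg8), beside 161 higher and 157 lower of 1246. The median difference of the 24 genes was -0.04, beside -0.04 over all probe sets, with a range from -0.14 to 0.15. These genes are what the choice of the 6 left behind, so the contrast between them and the 6 is not a result.

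Among 11 other precursor genes Dpm1, a subunit of the enzyme that makes dolichol-phosphate-mannose, had the smallest p with 0.14 ± 0.06 (limma adjusted p = 0.0987). Alg13, a subunit of the enzyme that adds the next N-acetylglucosamine to the young precursor, had -0.11 ± 0.05 (adjusted p = 0.112). The other oligosaccharyltransferase subunits, the ribophorins Rpn1 (-0.06 ± 0.06) and Rpn2 (-0.04 ± 0.07) and Ddost (-0.05 ± 0.06), had intervals that include 0. Of 4 further quality control genes, Lman2l, an ER export lectin, had -0.14 ± 0.06 (limma adjusted p = 0.13), and the lectin chaperone Canx (calnexin) had 0.11 ± 0.05 (adjusted p = 0.146). Uggt2, a relative of Uggt1, had -0.03 ± 0.04 (adjusted p = 0.712). Of 6 further O-mannose genes B3galnt2, which extends the glycan, had -0.12 ± 0.05 (limma adjusted p = 0.0936) and Mgat5b, which branches it, 0.15 ± 0.09 (adjusted p = 0.226). Dag1, which encodes dystroglycan, had 0.02 ± 0.05 (adjusted p = 0.81). Rpn2, Uggt2 and Dag1 were chosen for naming after their values were seen.

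Agrn (agrin), a ligand of glycosylated dystroglycan, was the only measured gene of 11 listed ligands and rose. It read 8.76 at the lowest, 9.23 at the median and 9.74 at the highest in the 12 mutant arrays, against 8.76, 8.97 and 9.08 in the 12 normal arrays. The groups overlapped, and the difference was 0.31 ± 0.07 (SE, limma adjusted p = 0.00218). In the same comparison 13.8% of all probe sets passed as higher, and the list was chosen with earlier results of these data known.

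**Figure D3:**
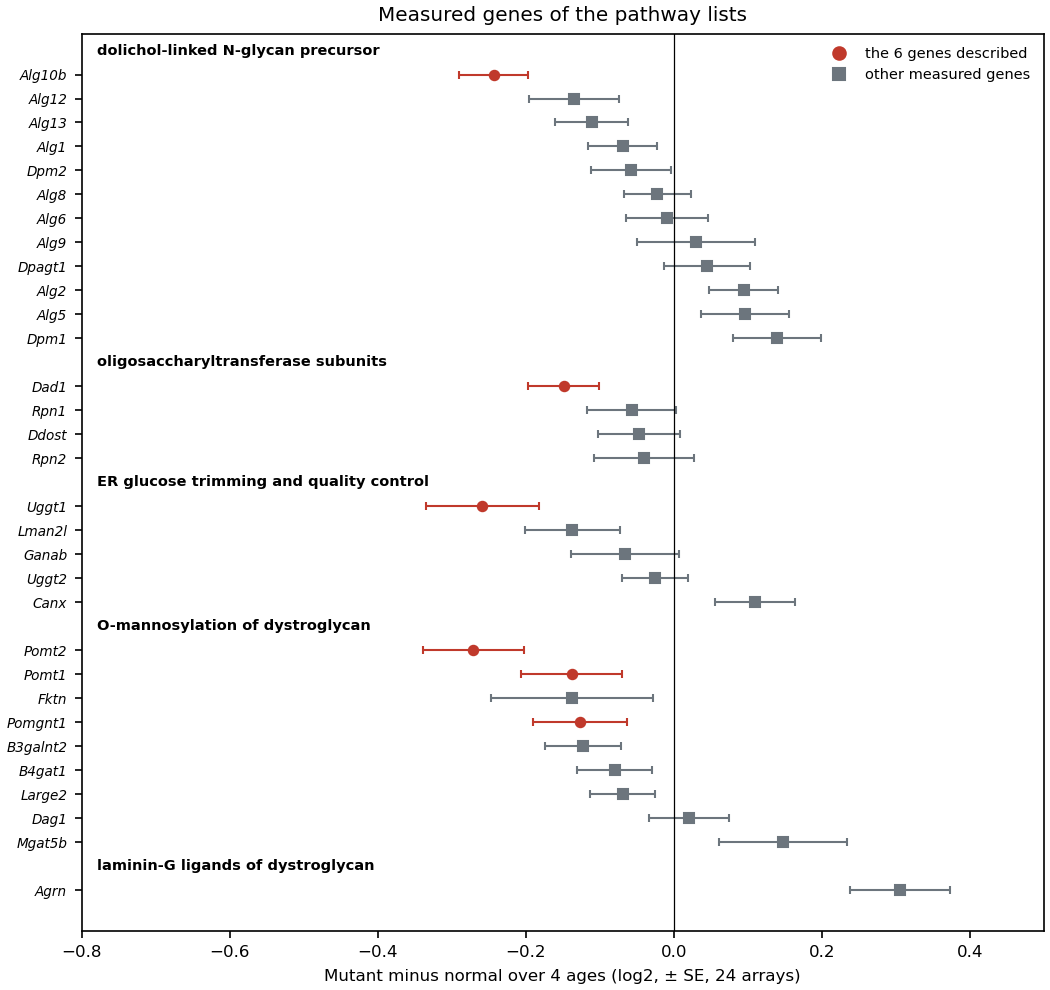
Mutant minus normal log2 difference over the 4 ages (points, with SE bars, from 24 arrays) for the measured genes of 5 pathway lists; red circles are the 6 genes described and grey squares the other measured genes. The 6 genes lie between -0.27 and -0.13, the other genes of the first 4 lists between -0.14 and 0.15, and Agrn at 0.31.

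With age, 1 of the 25 other pathway genes passed in mutant retinas (limma). This was Alg13, named here after its values were seen. It read 4.82, 4.79 and 4.60 at 4 months, against 5.02, 5.29 and 5.2 at 1 month, without overlap (log2 difference -0.44 ± 0.10, SE, limma adjusted p = 0.0221). In normal retinas Alg13 read 5.02, 4.93 and 4.94 at 4 months and 5.15, 5.09 and 5.0 at 1 month (-0.12 ± 0.10, adjusted p = 0.973). The change of its genotype difference was -0.32 ± 0.14 (limma adjusted p = 0.391). The mutant call ended without mutant 1 month replicate 2 (adjusted p = 0.13) or replicate 3 (0.0768), without mutant 4 months replicate 3 (0.066) and with the 6 arrays alone (0.0729), settings that also left Alg10b above the threshold.

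Arrays of the same group differed in the 6 genes together on some arrays. On mutant 4 months replicate 3 all 6 were the lowest of their group, with a mean deviation from the group means of -0.27, beside 54.1% of all probe sets that were lowest there. All 6 were also lowest on mutant 2 months replicate 2 (mean deviation -0.14, 41.7% of all probe sets) and normal 1 month replicate 2 (-0.15, 48.6%), and all 6 were highest on mutant 3 months replicate 3 (0.17, 50.3%). Mutant 4 months replicate 3 had a high Dcn signal, given above, and mutant 2 months replicate 2 a high Grifin signal. Normal 1 month replicate 2 had neither (Grifin 5.80, Dcn 4.08). The normal arrays with high Grifin or Dcn had mean deviations of 0.01 (2 months replicate 2), 0.055 (2 months replicate 3) and 0.007 (4 months replicate 1). A link between these signals and the 6 genes was not tested. Leaving out mutant 4 months replicate 3 or any other single array kept the mean differences over the 4 ages negative for all 6 genes, at -0.301 to -0.204 for Uggt1 and -0.181 to -0.095 for Pomt1. For each of the 15 pairs of genes, the correlation of deviations from group means over 24 arrays was positive, from 0.21 (Alg10b with Pomt1) to 0.86 (Uggt1 with Pomgnt1), with a median of 0.57, beside a median of 0.09 and a middle range of -0.12 to 0.30 over all pairs of probe sets. The points share arrays and normalization, and the values are a description.

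**Figure D4:**
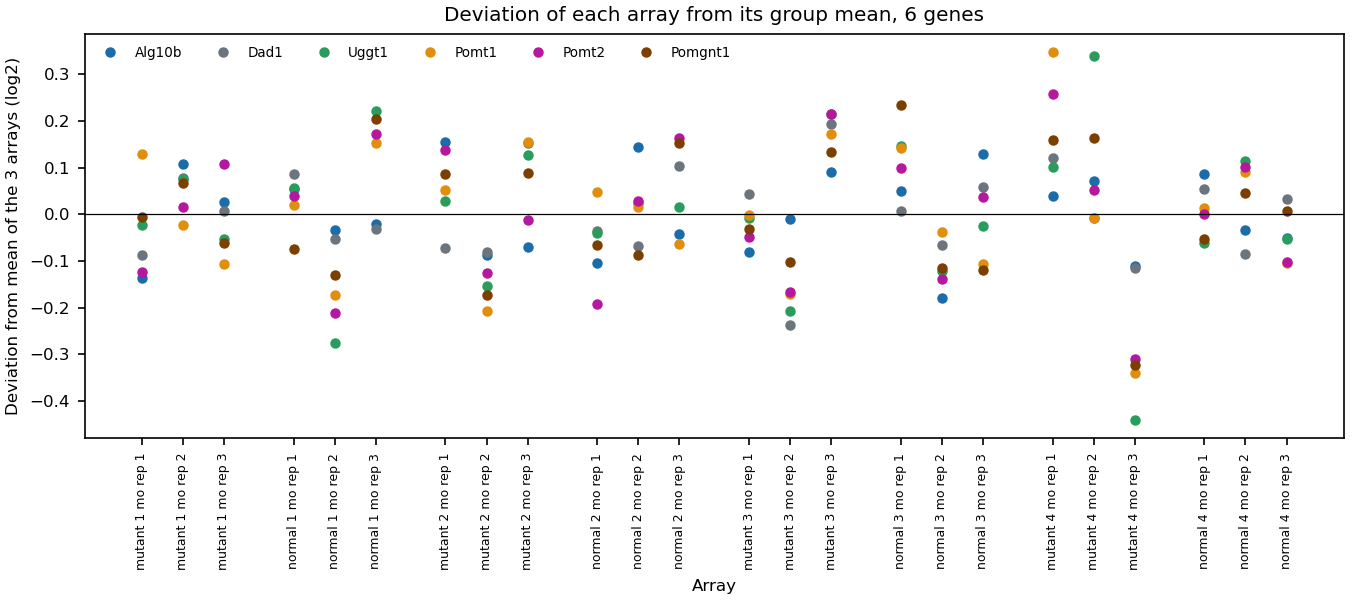
Deviation of each of 24 arrays (horizontal axis) from the mean of its group of 3 (vertical axis, log2), with 1 point for each of the 6 genes; within an age, mutant arrays stand left of normal arrays. The 6 points of mutant 4 months replicate 3 are all below 0 and those of mutant 3 months replicate 3 all above it, while many other arrays have points on both sides.

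The genes most like each member were taken as the 3 named probe sets with the highest Pearson correlation over the 24 arrays, again as a description of arrays that share genotype and normalization. For Alg10b these were Prdm1, a transcription factor (r = 0.87), the galactosyltransferase B4galt1 (0.83) and Alg13 (0.80). With deviations from group means in place of the signals these were 0.55, 0.26 and 0.62, so that much of the likeness lay between groups. For Pomgnt1 they were the galactosyltransferases B4galt2 (0.93) and B4galt3 (0.90) and the Golgi subunit Cog2 (0.86), and the values for deviations were 0.96, 0.89 and 0.85, so that the likeness lay within groups as well. Uggt1 was most like Ddb1 (0.91), Hdac5 (0.86) and Tbl3 (0.84), and Pomt2 most like Tbl3 (0.86), Ddb1 (0.83) and Galnt10 (0.83). The values for deviations were 0.84, 0.85 and 0.85 for Uggt1 and 0.88, 0.84 and 0.88 for Pomt2, so this likeness too lay within groups. Pomt1 was most like Tpst2 (0.81), Ext2 (0.80) and Mcoln1 (0.80), and Dad1 most like Ext2 (0.75), Cks2 (0.73) and Pmm1 (0.68). For deviations these were 0.79, 0.82 and 0.87 for Pomt1 and 0.65, 0.68 and 0.61 for Dad1. The lowest correlation was with Pdgfd, a growth factor, for Dad1 (-0.68), Uggt1 (-0.77), Pomt1 (-0.77) and Pomt2 (-0.62), with Met for Alg10b (-0.78) and with Slc35a3, a transporter of UDP-N-acetylglucosamine, for Pomgnt1 (-0.78). With deviations in place of the signals, Pdgfd had -0.64, -0.81, -0.87 and -0.71 in the same order, Met -0.44 and Slc35a3 -0.87.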

How the data were processed

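Log2 signals of 1246 probe sets on 24 arrays were used as deposited by the authors, who made them with RMA per the submitters' processing notes; its version, its steps and the arrays normalized together are not given in the sources used here. Values ran from 1.90 to 14.17, with array medians of 5.15 to 5.34 and 0 missing. Probe sets were named by the transcript accession in their identifier through a RefSeq gene table (GRCm38.p6): 962 matched 908 genes. The 6 members, the gene lists and the tests were chosen with earlier results of these data known. No p-value is therefore printed for a member, and which members passed is given as a description only.

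One limma model (limma 3.58.1, R 4.3.3) estimated 8 group means from the 24 unfiltered arrays (16 residual and 4.37 prior degrees of freedom). P-values were 2-sided and adjusted by Benjamini-Hochberg, contrast by contrast, over the whole table of 1246, and passed under 0.05. The code of the fit was run on simulated data with noise drawn independently for each probe set and array. Such data lack deviations that many probe sets share on an array, so the run does not test the fit under them. Named are all members, in each pathway list the genes that passed or else those with the smallest p, and by correlation the genes most like each member; Rpn2, Uggt2 and Dag1, and Alg13 for its course with age, were named after their values were seen. Same-numbered mutant and normal arrays deviated together (r above 0.1) in 3 of 12 pairs. These were all 3 pairs of 2 months (0.245 to 0.662), so the fit over all ages has no block and the 2-month differences were also taken over pairs. Deviations from a mean of 3 arrays sum to 0, so the 3 values are not independent signs of pairing. The highest was that of replicate 2, whose mutant and normal arrays both had a high Grifin signal. Alternatives were other scalings, filters on low signal, prior settings, array weights, fewer arrays, a block, a stricter threshold, covariates and each array left out.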

Additional observations from a re-analysis of the deposited data

How the results depend on the processing

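The mean genotype difference of each of the 6 genes stayed negative in all 203 values. These came from 10 alternatives and from 24 arrays left out in turn, and 0 moved by over 1 SD. The signal filters, prior settings and block cannot change such a mean difference and repeated its value. The genes were chosen with this difference known, so its stability carries no test. Agrn stayed between 0.288 and 0.331 in 11 alternatives. Dad1 was removed by the median filter. In the comparisons with age, no other call among the members changed under the alternatives beyond those given here, and the cause of each change was not tested. Calls of members for genotype over the ages were not compared between alternatives. Counts of calls moved more. For genotype over the ages, 150 probe sets passed at an adjusted p under 0.01, 286 with centring, 318 with quantile normalization and 333 with array weights. Other pathway genes were then 1 higher with centring (Canx), 1 higher and 4 lower with quantile normalization (Alg2 up, Ddost, Alg12, B3galnt2 and Alg8 down) and 1 lower with array weights (B3galnt2). For the F test of the difference by age, 51 passed with array weights, and 0 with the replicate block, at 0.01, without the 3 arrays with a high Grifin signal or with Grifin and Dcn as covariates. For the change of the difference from 1 to 4 months, 6 passed with centring, 15 with quantile normalization, 10 above the median signal, 81 with array weights, 12 with the 12 arrays alone and 0 at 0.01 or without the 3 arrays; with quantile normalization 1 member passed, Alg10b (-0.49). For age in mutant retinas, 47 of 1246 probe sets passed with quantile normalization, 94 with array weights and 6 at 0.01. The members that passed were 2 with quantile normalization (Alg10b and Pomt2) and 0 at 0.01 or with the 6 arrays alone. For age in normal retinas, 26 passed with array weights, 1 with an intensity trend and 1 with the 6 arrays alone. With 1 array left out the counts lay between 237 and 344 for genotype (0 to 1 other pathway genes higher, 0 to 2 lower), 0 and 31 for the F test, 0 and 24 for the change of the difference, 9 and 45 for age in mutant retinas (0 to 1 members) and 0 and 0 in normal retinas. With the replicate number as a block, 277 probe sets passed for genotype and 34, with 1 member, for age in mutant retinas. At 2 months same-numbered arrays deviated together, though no label pairs them. The SE over these 3 pairs (chosen after seeing the data) was 0.142 for Alg10b, 0.026 for Dad1, 0.09 for Uggt1, 0.127 for Pomt1, 0.166 for Pomt2 and 0.077 for Pomgnt1. The pair differences were negative in 3 of 3 pairs except for Pomt1 (2 of 3). Over all ages 15 of 24 arrays correlated best with their own number in the other genotype. These 24 choices are not independent, since deviations in a group of 3 sum to 0. At 1, 3 and 4 months the same-numbered r lay only between -0.03 and 0.083. The count therefore leaves pairing at those ages undecided, and the labels do not state it. Signal over background is not known for these arrays, which limits the reading of Dad1 most.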
